A study of Mus musculus with 2 samples.

Results

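The genes described here are the MHC class II genes and their transcriptional activator Ciita, 8 of the 21625 genes in the joined matrix: H2-Aa, H2-Ab1, H2-Eb1, Cd74, Ciita, H2-DMa, H2-DMb1 and H2-Oa. They were chosen by name, and all 8 had UMIs (unique molecular identifiers, each standing for 1 captured transcript) in both libraries. Droplet single-cell RNA sequencing had been run on wild-type mouse kidney, with 1 control library and 1 library from kidney with nephropathy induced by folic acid (FA), which injures tubules. The dose, the time after FA, the strain, the age and the number of animals are not stated in the labels. After filtering, 5807 control cells and 13502 FA cells were kept. With 1 library per group no test was possible: intervals are 95% intervals for counting error only, and differences are between single libraries. Xist had 15 UMIs in control and 104149 in FA, so FA and a sex difference between the animals cannot be told apart.

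MHC class II molecules pair an alpha and a beta chain and carry peptides from taken-up protein to the cell surface for CD4 T cells. H2-Aa and H2-Ab1 encode the I-A pair, H2-Eb1 encodes the beta chain of I-E, and Cd74 encodes the invariant chain, which fills the groove until the endosome. H2-DMa and H2-DMb1 encode the DM pair, which exchanges the invariant chain fragment for peptide, and H2-Oa encodes a chain of DO, which restrains DM. Ciita does not bind DNA itself and is recruited by RFX, CREB and NF-Y factors at the X and Y boxes of class II promoters. Dendritic cells, B cells and many tissue macrophages carry class II, and interferon gamma can induce it in epithelium.

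In GENCODE vM21 (GRCm38), 6 of the 8 genes lie on chromosome 17, from H2-Oa at chr17:34092340-34095234 to H2-Eb1 at chr17:34305867-34316674. Ciita lies at chr16:10480059-10528418. H2-Eb1, H2-Oa, H2-DMa and Ciita overlap genes on the other strand, among them Gm20513 at H2-Eb1 and Dexi at Ciita. No source says whether the counting used strand, so reads of such partners may not be told apart. H2-DMb1 and H2-DMb2 are near-identical copies, and how reads were divided between them is uncertain.

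The promoters are shown because these genes were lower together in macrophage-like cells and because class II promoters share the boxes at which Ciita is recruited. Each stretch is from RefSeq (GRCm38.p6), 5′ to 3′ on the gene's strand. Capitals mark matches to an X box type motif (AG, any 2 bases, AC, any 2 bases, ATG) and to ATTGG, the core of the Y box, each searched on both strands.
H2-Eb1, chr17:34305757-34305866, plus strand: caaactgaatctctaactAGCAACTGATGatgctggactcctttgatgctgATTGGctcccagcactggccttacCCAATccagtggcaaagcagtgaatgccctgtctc
H2-Aa, chr17:34287824-34287933, minus strand: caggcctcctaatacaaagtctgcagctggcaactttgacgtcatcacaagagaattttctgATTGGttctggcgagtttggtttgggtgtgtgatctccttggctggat
H2-Oa, chr17:34092229-34092340, plus strand: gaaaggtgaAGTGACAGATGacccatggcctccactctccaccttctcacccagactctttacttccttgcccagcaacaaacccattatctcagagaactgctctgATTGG
In H2-Eb1 the X motif began 33 bases before the Y motif, and in H2-DMb1, whose X match reads AGTAACTGATG, it began 34 bases before it. In H2-Oa the only exact X match began 98 bases before the Y motif. The stretch agcaacaaacc, nearer to that Y motif, differs from the X letters only in its last letters and was not marked. In the windows from 250 bases before to 50 after each start, H2-Aa held the Y motif but not these X letters, and neither of the 2 windows for H2-DMa held the X letters. The X motif was in 3.09% of the 32851 promoter windows and the Y motif in 37.4%. Both, with the X start 25 to 40 bases before the Y start on the gene's strand, were in 14 windows (0.0426%), a range set after the sequences were seen. Promoters of H2-Ab1, Cd74 and Ciita are not shown.

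Class II RNA lay in different cells in the 2 libraries. Macrophage-like cells held 81.5% of the UMIs of H2-Aa, H2-Ab1, H2-Eb1 and Cd74 (the 4 genes below) among kept control cells and 21.8% among kept FA cells. Dendritic-like cells held 10.8% and 67.4%, and B cell-like cells 3.31% and 4.61%. Dendritic-like cells made up 1.64% of kept cells in control and 5.38% in FA. Summed over all barcodes of a library, H2-Ab1 was at 1437 CPM (UMIs of the gene per 1000000 UMIs) in control and 1412 CPM in FA. H2-Aa was at 1600 and 1032 CPM, H2-Eb1 at 1615 and 1086 CPM, Cd74 at 4487 and 3064 CPM, and Ciita, in the other direction, at 30.8 and 43.1 CPM. These library sums mix all cells.

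Macrophage-like cells had less RNA of every member in FA. All 8 genes were lower by 1.5-fold or more, where 21.5% of all genes tested in the class were. The sum of the 4 genes was 98837 CPM of the class in 708 control cells and 7059 CPM in 1663 FA cells, a ratio of 0.0714 (0.0709 to 0.0719). H2-Aa was at 17307 CPM in control and 944 CPM in FA. H2-Ab1 was at 15318 and 1303 CPM. H2-Eb1, the I-E chain, was at 17965 and 1002 CPM, a ratio of 0.0558 beside 0.0545 for H2-Aa and 0.0851 for H2-Ab1. Cd74 was at 48246 and 3810 CPM.

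Ciita was at 261 CPM in control macrophage-like cells and 19.0 CPM in FA, and its ratio of 0.0728 (0.0633 to 0.0835) held that of the 4 genes within its interval. With likely doublets kept, the log2 ratio of Ciita was -3.16 rather than -3.78. The DM genes differed by less: H2-DMa was at 872 and 229 CPM (ratio 0.262) and H2-DMb1 at 889.8 and 141 CPM (0.159). H2-Oa was at 62.8 CPM in control and 1.35 CPM (18 UMIs) in FA. Its log2 ratio of -5.54 was -3.99 with doublets kept and -4.82 with unnamed cluster 4 counted as macrophage-like.

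The macrophages were of different clusters in the 2 libraries, although class II genes were left out of the clustering. Of the 708 control cells 687 lay in cluster 9, and of the 1663 FA cells 1166 lay in cluster 1 and 490 in cluster 20. Less class II RNA per cell therefore cannot be told apart from another mix of macrophages. Of 14 macrophage markers, 12 were found in at least 5% of the control cells and 13 in at least 5% of the FA cells. The leading genes of cluster 1 included the chemokine genes Ccl2, Ccl7 and Ccl12.

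**Figure D1:**
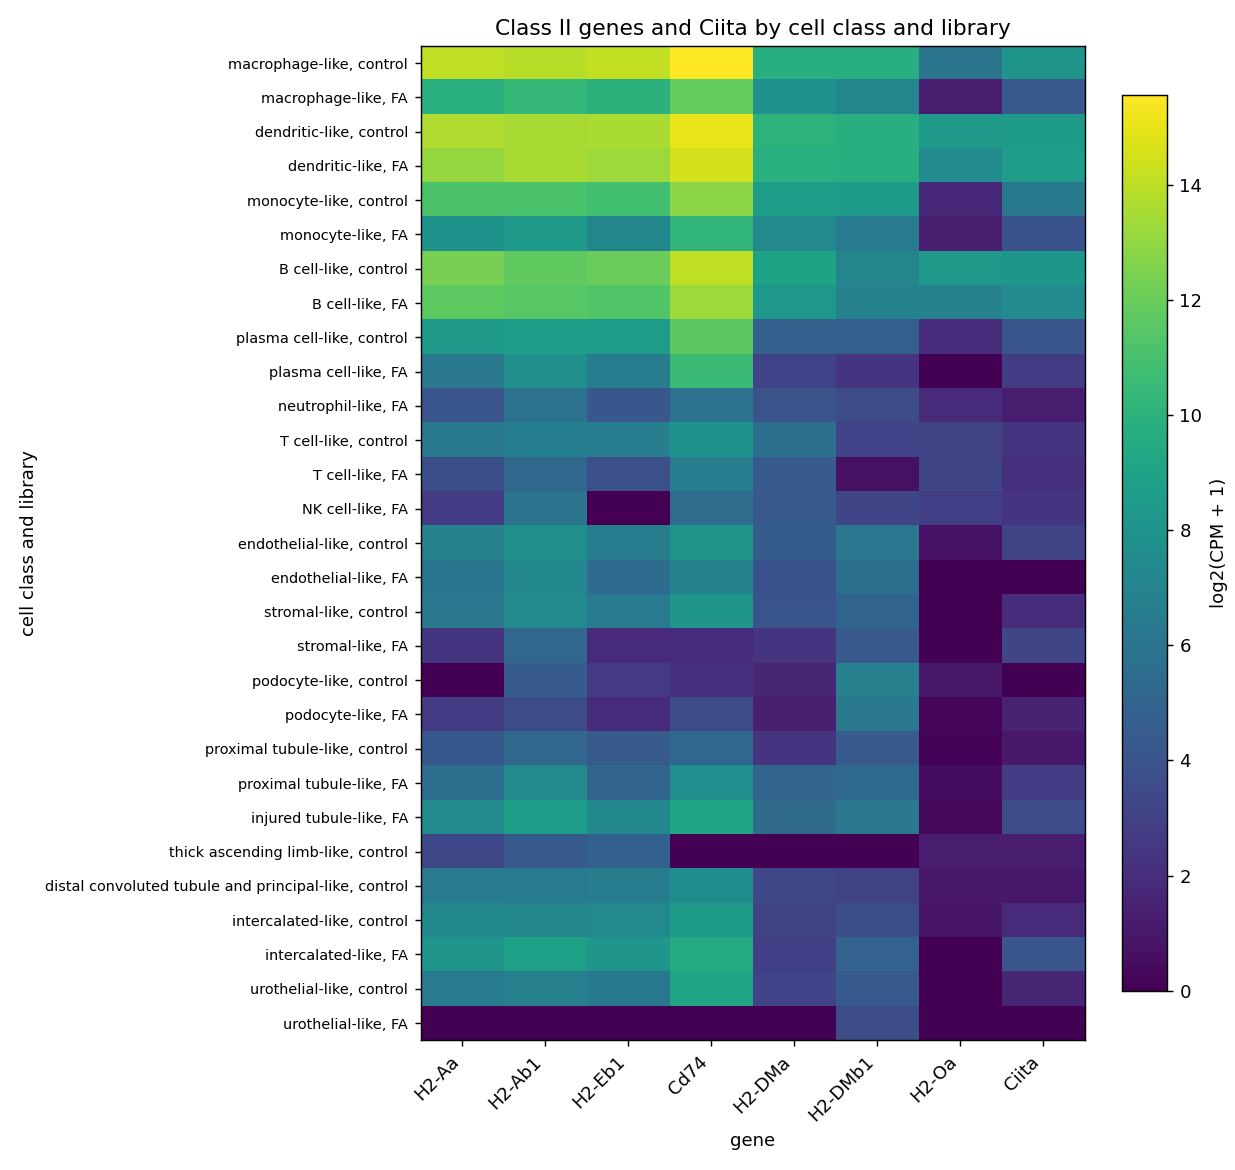
Levels of the 8 genes as log2(CPM + 1) of summed UMIs, one line for each cell class and library with at least 50 cells (29 lines). H2-Aa, H2-Ab1, H2-Eb1 and Cd74 are high in macrophage-, dendritic- and B cell-like lines, and macrophage-like FA lies far under macrophage-like control (7059 against 98837 CPM for their sum).

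Monocyte-like cells, blood-derived precursors that can gain class II in tissue, differed in the same direction. All 7 measured members were lower in FA (background 23.7%), and H2-Oa had 1 UMI in control and 5 in FA. The 4 genes were at 13935 CPM in 60 control cells and 1940.0 CPM in 537 FA cells, a ratio of 0.139 (0.134 to 0.144). Ciita was at 76.4 and 14.3 CPM, a ratio of 0.188 (0.118 to 0.304). H2-Eb1 had the lowest ratio, 0.0760, and H2-DMa the highest of the 7, 0.372. Over the 60 control cells the 4 genes went with the macrophage markers C1qb and C1qa (correlations of 0.460 and 0.431). The mix of cells within the class was not tested.

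Dendritic-like cells differed less. The 4 genes were at 70924 CPM in control and 53859 CPM in FA, a ratio of 0.759 (0.753 to 0.766). H2-Ab1 was at 11963 CPM in 95 control cells and 12013 CPM in 726 FA cells, and Ciita at 363 and 386 CPM (ratio 1.06, 0.942 to 1.21). H2-DMb1 was at 901 and 853 CPM. H2-Aa (13476 and 8895 CPM) and H2-Oa (326 and 180.3 CPM) were the 2 of 8 members lower by 1.5-fold, where 16.2% of all genes tested were. H2-Aa lay just past that limit, at 0.660, and Cd74 just short of it, at 0.694. H2-Ob, the partner of H2-Oa, had a ratio of 0.529, and H2-DMb2 was 1.98-fold higher.

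The dendritic-like class held more than 1 kind of cell. At the finer resolution of 2 it fell in a cluster of 20 control and 703 FA cells and another of 75 control and 22 FA cells. In the former the 4 genes were at 56516 CPM in control and 54676 CPM in FA. In the latter they were at 75124 and 9255 CPM. Of its 22 FA cells 90.9% had a UMI of Siglech, a plasmacytoid marker, and 9.09% one of Cd209a, a marker of type 2 dendritic cells. Of its 75 control cells 20% had Siglech and 92% Cd209a.

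B cell-like cells, all in cluster 11, had lower levels of 6 of 8 members in FA (background 14.5%). The 4 genes were at 30197 CPM in 199 control cells and 18840.4 CPM in 463 FA cells. Ciita was at 282 and 179 CPM (ratio 0.636, 0.513 to 0.788). H2-Oa had the lowest ratio, 0.359, with 329 and 118 CPM. H2-Ab1 (0.842) and H2-DMb1 (0.887, 0.663 to 1.19) were the members short of 1.5-fold.

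By Ciita level the classes stood in the order dendritic-like (363 CPM), B cell-like (282), macrophage-like (261) and monocyte-like (76.4) in control. The intervals of dendritic-like and B cell-like cells overlapped, as did those of B cell-like and macrophage-like cells. In FA the order was dendritic-like (386), B cell-like (179), macrophage-like (19.0), intercalated-like (15.9, from 5 UMIs), monocyte-like (14.3) and injured tubule-like cells (11.5), and from macrophage-like cells on each interval overlapped the next. Plasma cell-like cells were at 16.2 CPM in control, and all other classes of at least 50 cells were at 8.37 CPM or less.

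Each cell was then thinned to 1000 UMIs, to see whether these sums came from a few cells or from all. Control macrophage-like cells were nearly all strongly positive: the median cell had 105 UMIs of the 4 genes per 1000, 10% of cells had 66 or fewer and 10% had 140 or more, and 673 of 674 cells had 10 or more. FA macrophage-like cells were mostly low, with a long tail. Their median was 2, 10% of cells had 29 or more, and the maximum was 91, under the control median. Of 1663 cells, 381 (22.9%, 20.9 to 25.01) had 10 or more, and the top 10% of cells held 56.6% of the UMIs. The variance was 25.9 times the mean in FA and 8.03 times in control.

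The FA macrophage clusters differed from each other: 29.2% of cluster 1 (26.6 to 31.9) and 8.37% of cluster 20 (6.07 to 11.2) had 10 or more. The limit of 10 is a point on a range, and 83 of the 1663 cells had 8 to 12. The 381 cells above it had a median of 13 UMIs of the 14 macrophage markers, beside 17 in the 1282 cells under it, at median depths of 6269 and 7450.5 UMIs. The 14 monocyte markers had medians of 3 and 2, with means of 3.18 and 2.72. The 16 dendritic markers had a median of 0 in both, with means of 0.181 and 0.161, and the 10 B cell markers had a median of 0 in both. Cluster 4, with 893 FA cells at a median of 969 UMIs, was left unnamed, and 25.9% of its 424 thinned cells had 10 or more.

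**Figure D2:**
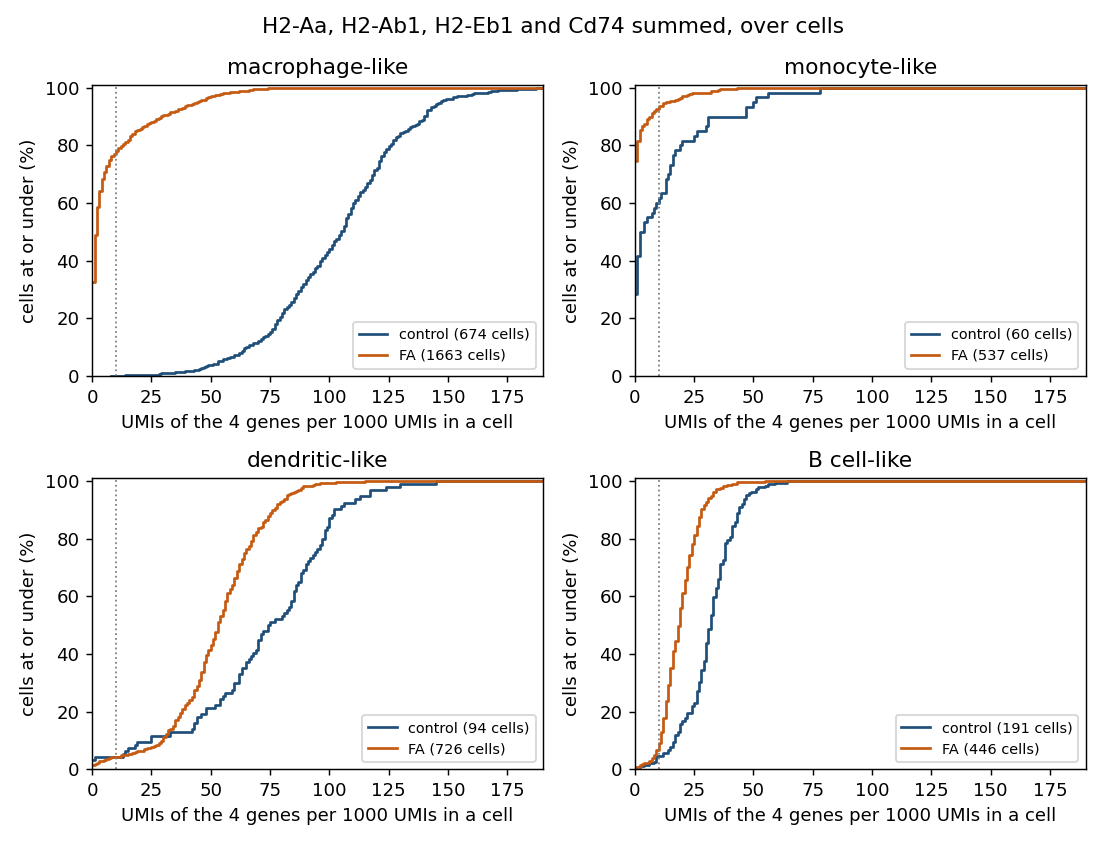
Share of cells (%) at or under each number of UMIs of H2-Aa, H2-Ab1, H2-Eb1 and Cd74 per 1000 UMIs of a cell, in control (blue) and FA (orange), with a dotted line at 10. The macrophage-like curves lie far apart (medians 105 and 2), and the dendritic-like curves meet at the line, with 95.7% and 95.9% of cells at 10 or more.

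Dendritic-like cells had medians of 74.5 in control and 53 in FA, and 95.7% and 95.9% of cells had 10 or more. B cell-like cells had medians of 32 and 19, with 95.3% and 93.3% at 10 or more, so FA B cells were lower as a whole with no large negative group. Monocyte-like cells were mixed in both libraries. Of 60 control cells 40% (27.6 to 53.5) had 10 or more, and of 537 FA cells 7.26% (5.22 to 9.79), with medians of 3 and 0. The top 10% of FA monocyte-like cells held 83.7% of the UMIs.

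The 4 genes went together from cell to cell in myeloid classes. Over their 6 pairs, Pearson correlations of log thinned counts were 0.764 to 0.854 in 1663 FA macrophage-like cells and 0.584 to 0.614 in 674 control cells. In dendritic-like cells they were 0.808 to 0.907 in control and 0.701 to 0.750 in FA. In B cell-like cells they were 0.344 to 0.528 and 0.180 to 0.325. The cells of each set share 1 library and a depth of 1000 UMIs.

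Ciita was sparse, which limits its correlation over single cells. A Ciita UMI was seen in 147 of 674 thinned control macrophage-like cells and in 37 of 1663 FA cells. In FA the cells with one had a mean of 32.1 UMIs of the 4 genes and those without 7.65, and the Pearson correlation was 0.212 (0.372 unthinned). In control the means were 100.2 and 104, and the correlation was -0.0490 (0.0467 with doublets kept). In FA monocyte-like cells the means were 15.6 and 1.90, from only 10 cells with a Ciita UMI, and the correlation of 0.330 was 0.153 with doublets kept. Correlations were 0.102 and 0.122 in dendritic-like and 0.0755 and 0.105 in B cell-like cells of control and FA, each weak in sparse counts.

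Ciita was also summed over quintiles (5 equal groups) of cells ordered by the share of the 4 genes in their full counts, a step added after the data were seen. In FA macrophage-like cells Ciita was at 2.50 CPM (1.004 to 5.15) in the lowest quintile, 1.87 in the next, 5.83 in the middle, 19.9 in the fourth and 79.0 (67.8 to 91.5) in the highest. Ciita was higher in the upper quintiles, and the highest quintile had a median of 29046 CPM of the 4 genes. The quintiles pool clusters that differ in both. At resolution 2, a cluster of 1162 FA cells was at 28.2 CPM of Ciita and 9833 CPM of the 4 genes. One of 275 cells was at 7.68 and 2631 CPM, and one of 240 cells at 3.94 and 3745 CPM. The order within a cluster was not tested. Control macrophage-like quintiles were between 233 and 306 CPM with no order, all above the highest FA quintile. H2-DMb1 went from 42.8 CPM in the lowest to 497 in the highest quintile in FA, and from 608 to 1164 in control.

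In monocyte-like cells the lowest quintile had 0 UMIs of Ciita in both libraries. The highest quintile was at 168 CPM (99.4 to 265) in 12 control cells and 65.9 CPM (47.5 to 89.1) in 107 FA cells, and the other FA quintiles were at 4.33 CPM or less. In dendritic-like cells Ciita was lowest in the lowest quintile, at 219.7 CPM in control and 266 in FA, and was between 289 and 449 CPM in the others. FA B cell-like cells were at 109 CPM (72.1 to 157) in the lowest and 314 CPM (240 to 404) in the highest quintile.

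**Figure D3:**
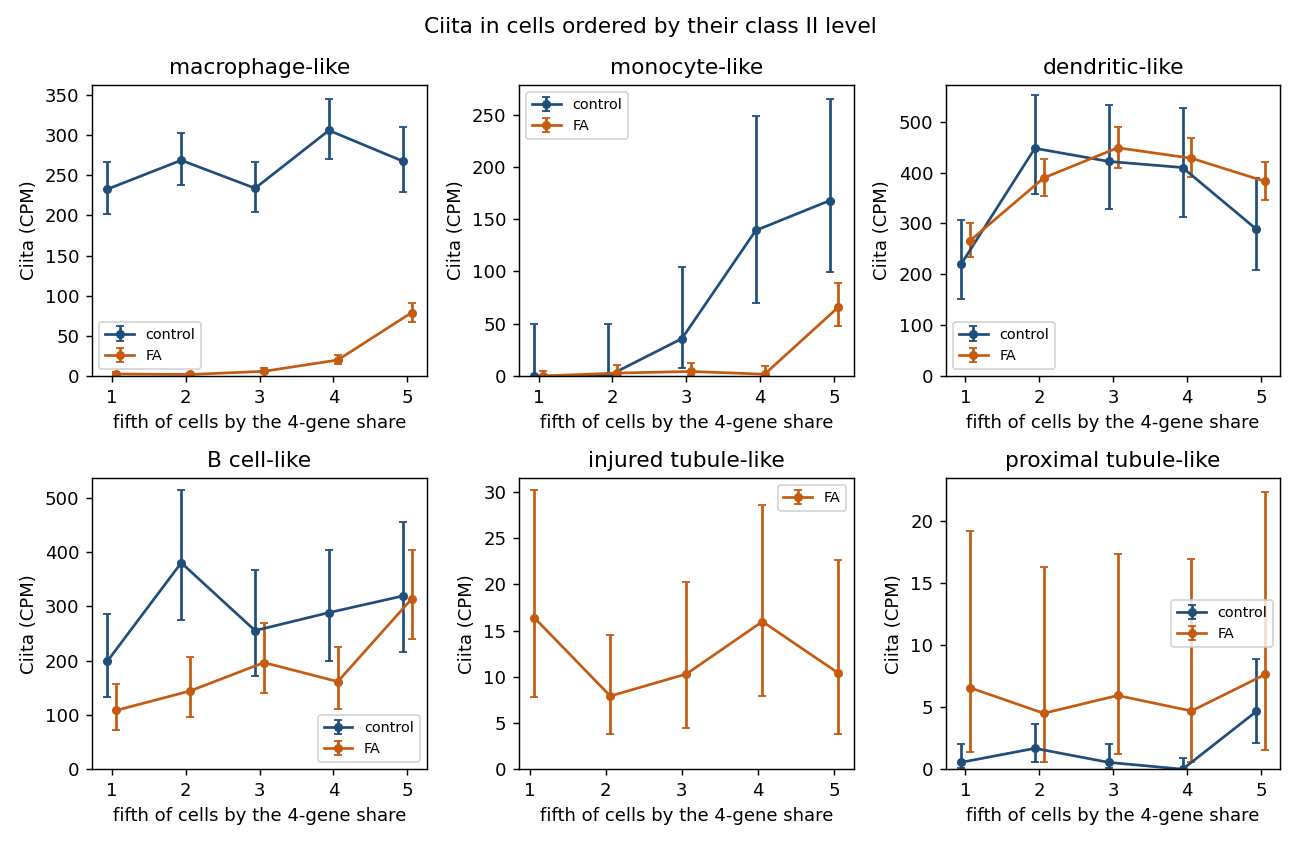
Ciita (CPM, with 95% Poisson intervals for counting error) in quintiles of cells ordered by the share of the 4 genes, lowest at 1, in 6 classes of control (blue) and FA (orange). In FA macrophage-like cells the highest quintile is at 79.0 CPM and the lowest at 2.50, and the injured tubule-like intervals all overlap.

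Proximal tubule-like cells had little class II RNA, and more of it in FA. All 7 measured members were higher in FA by 1.5-fold or more, where 29.5% of all genes tested were. The 4 genes were at 109.6 CPM in 2135 control cells and 447 CPM in 545 FA cells, a ratio of 4.08 (3.78 to 4.41). Cd74 was at 36.7 and 196 CPM, H2-Ab1 at 34.0 and 170.5 CPM, and H2-Aa at 18.5 and 48.6 CPM. H2-DMa, at 4.13 and 32.4 CPM, had the highest ratio, 7.84. Ciita rested on 19 UMIs in control and 13 in FA (1.12 and 5.85 CPM).

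This difference depended on the cell filter. With cells limited to a mitochondrial share of 20%, 500 genes and 1000 UMIs, the class held 1072 control and 1133 FA cells, and the 4 genes were at 125 and 271 CPM (log2 ratio 1.11 rather than 2.03). H2-Eb1 was then lower in FA, at 16.8 against 24.4 CPM, where it had been 31.9 against 20.3 CPM. The clusters were again different: 543 of the 545 FA cells lay in cluster 18, which held 3 control cells.

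Injured tubule-like cells came almost wholly from FA, with 1393 cells, so no ratio is given. They had 1316 CPM of the 4 genes, with 595 CPM of Cd74, 401 of H2-Ab1, 165 of H2-Aa and 155 of H2-Eb1. Cluster 2, led by Spp1 and fibrinogen genes, was at 1685 CPM (1093 cells) and cluster 24 at 985 CPM (300 cells). Thinned, 62.5% of 1099 cells had a UMI of the 4 genes, 5 cells had 10 or more, and the variance was 3.01 times the mean, so the RNA was spread over many cells at a low level. Their median mitochondrial share was 27.3%. Under the stricter filter the class was regrouped, to 1096 FA cells at 609 CPM and 123 control cells at 604 CPM, of which 77 had been named stromal-like.

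In thinned proximal tubule-like cells, 9.80% of control and 28.6% of FA cells had a UMI of the 4 genes (unthinned 29.7% and 57.6%, at median depths of 6198 and 3557 UMIs). Podocyte-like cells of FA had one in 2.64% of thinned cells at a median depth of 6471. T cell-like cells of FA had one in 5.81% at a median depth of 2782.5.

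RNA set free from immune cells reaches droplets of every kind, so the 4 genes were set beside 12 leukocyte genes that tubule cells lack, called the gauge. In control, proximal tubule-like cells had 0.203% (0.194 to 0.213) of the level of all immune-like cells for the 4 genes and 0.145% (0.132 to 0.159) for the gauge. In FA they had 3.57% (3.36 to 3.80) and 0.397% (0.339 to 0.462). Injured tubule-like cells had 10.5% and 0.684%. The gap between such percentages depends on the reference. Per gauge UMI, the 4 genes had 0.661 UMIs in all FA immune-like cells, 0.260 in macrophage-like and 5.18 in dendritic-like cells of FA. They had 5.95 in FA proximal tubule-like and 10.2 in injured tubule-like cells. In control the values were 4.03 in proximal tubule-like, 4.83 in stromal-like and 3.91 in endothelial-like cells. They were 2.88 in all immune-like and 7.34 in dendritic-like cells of control. Free RNA from dendritic-like cells alone was not tested. Cluster 24 had 0 UMIs of Lyz2, Tyrobp, Fcer1g and the C1q genes, beside 35 of Ptprc and 31 of Laptm5. The gauge genes were not alike: in FA proximal tubule-like cells Ptprc was 8.20-fold and Fcer1g 6.35-fold higher than in control, while C1qb had 63 UMIs in control and 0 in FA.

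Tubule cells without any gauge UMI gave nearly the same FA levels. The 4 genes were at 1262 CPM in 1050 such injured tubule-like cells, beside 1316 in all, and at 448 CPM in 446 such FA proximal tubule-like cells, beside 447 in all. In 1854 such control proximal tubule-like cells they were at 72.0 CPM, beside 109.6. Gauge UMIs were sparse, with 167 in the 545 FA proximal tubule-like cells and 507 in the 1393 injured tubule-like cells. Evenly spread free RNA would leave cells without a gauge UMI at the same level. This split therefore cannot tell it apart from the cells' own RNA. FA urothelial-like cells had 0 UMIs of the 4 genes in 125 cells of median depth 11864, which, at a limit of 3 counts, allows up to 1.83 CPM and up to 2.4% of cells with a UMI (not of cells expressing the genes). FA podocyte-like cells were at 30.9 CPM, and at 5.67 CPM in the 694 cells with no gauge UMI.

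The make-up of the 4 genes also differed. H2-Ab1 had 2.43 UMIs for each of H2-Aa in injured tubule-like and 3.51 in FA proximal tubule-like cells, beside 1.34 in all FA immune-like cells. High values were not limited to tubule cells: the ratio was 2.94 in T cell-like, 3.42 in neutrophil-like and 2.03 in podocyte-like cells of FA. For every class of at least 50 cells with a value in both libraries, the ratio was higher in FA. It rose from 0.885 to 1.38 for macrophage-like, 0.888 to 1.35 for dendritic-like, 0.669 to 0.875 for B cell-like cells. Control proximal tubule-like cells had 1.83, beside 0.881 for all control immune-like cells. The cause of this shift between libraries was not tested.

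**Figure D4:**
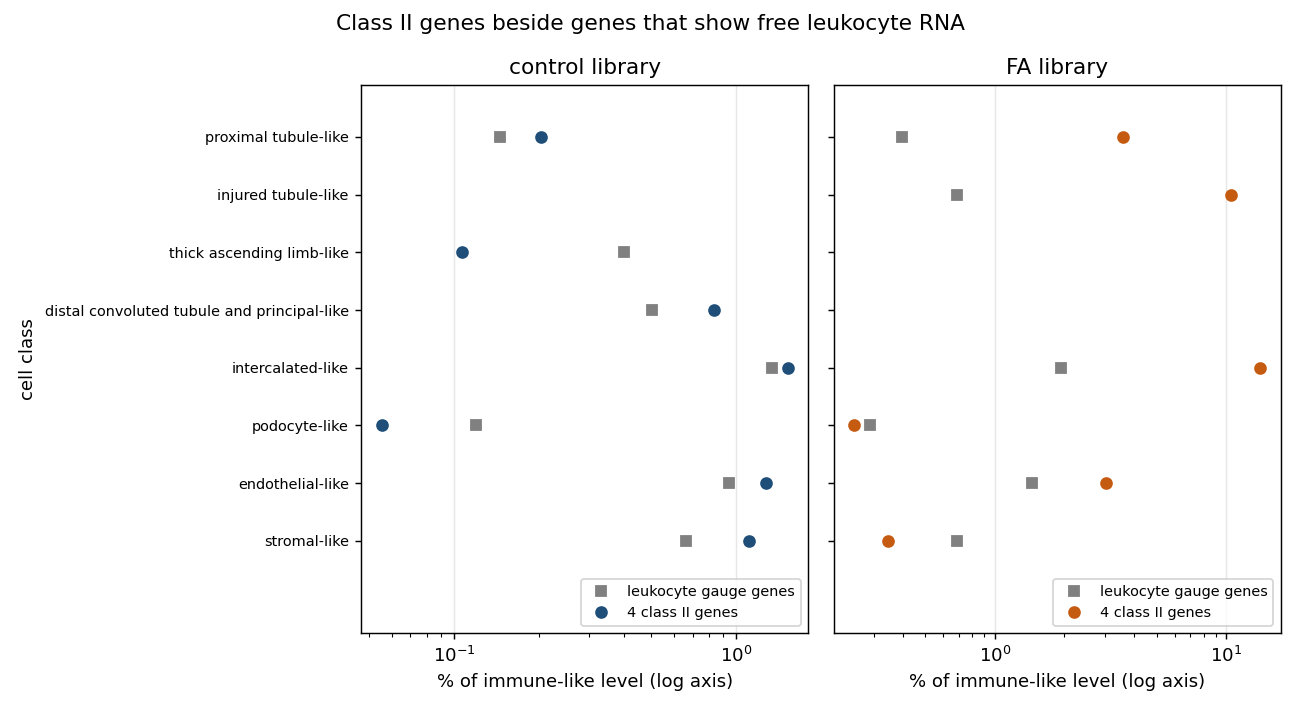
Level of the 4 class II genes (circles) and of the leukocyte gauge genes (grey squares) in non-immune classes, as percent of the level in all immune-like cells of the same library, on log axes that differ between the panels. In FA proximal and injured tubule-like cells the circles (3.57% and 10.5%) lie far right of the squares (0.397% and 0.684%). This gap depends on the reference: FA dendritic-like cells had 5.18 UMIs of the 4 genes per gauge UMI, all FA immune-like cells 0.661.

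Intercalated-like cells, the acid-base cells of the collecting duct, gave another picture. The 4 genes were at 821 CPM in 152 control and 1755 CPM in 220 FA cells, and all 5 measured members were higher in FA (background 27.6%). This rested on few cells: 1 FA cell held 476 of the 553 UMIs and 1 control cell held 421 of 911. Thinned, the mean was lower in FA, with 0.625 UMIs in 144 control cells and 0.439 in 114 FA cells, and 106 FA cells were too shallow to enter. In cells with no gauge UMI they were at 48.7 CPM (114 cells) and 213 CPM (155 cells), and in cells with one at 3525 CPM (38 cells) and 5609.6 CPM (65 cells). Most of their class II RNA lay in cells that also held leukocyte RNA. Control endothelial-like cells, which can carry class II, were at 688 CPM, and at 650.0 CPM in the 736 cells with no gauge UMI. In FA the 107 endothelial-like cells were at 379.7 CPM, and the 67 with no gauge UMI at 219.8 CPM. In the class 4 of 7 measured members were lower and 0 higher (backgrounds 14.5% and 22.6%).

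Plasma cell-like cells had 7 of 7 measured members lower in FA and 0 higher (backgrounds 6.71% and 54.2%). In the same cells 7 of 11 gauge genes and 4 of 5 tubule genes were lower, with median log2 ratios of -3.37 and -2.49 beside -1.79 for the members. The part of RNA from other cells in this difference was not tested. Cd74 was at 3244 CPM in 61 control cells and 1567 CPM in 113 FA cells, and H2-Aa at 344 and 74.9 CPM. Stromal-like cells had 6 of 6 measured members counted as lower (background 36.3%), with Cd74 at 271 CPM in 282 control cells and 2 UMIs in 172 FA cells. The control level rested in part on few cells: 1 cell held 464 of the 1416 UMIs of the 4 genes. The 71 control cells with a gauge UMI held 773, and the 87 control cells of cluster 33 held 860. In cells with no gauge UMI the 4 genes were at 361 CPM (211 control cells) and 25.8 CPM (133 FA cells).

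Ciita showed no order with class II in tubule cells. Over quintiles of injured tubule-like cells it was at 16.4, 7.92, 10.3, 16.0 and 10.4 CPM, while the median of the 4 genes went from 0 to 3745 CPM. H2-DMb1 was at 59.0 CPM in the lowest and 147 CPM in the highest of these quintiles. Over 1099 cells the correlation of Ciita with the 4 genes was 0.0143, from 12 cells with a Ciita UMI. FA proximal tubule-like quintiles had 2 or 3 Ciita UMIs each, so no order was detectable at this depth.

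H2-DMb1 was also found in podocyte-like cells, the filtering cells of the glomerulus. It was at 109 CPM (88.7 to 132) in 78 control and 73.2 CPM (66.8 to 80.1) in 874 FA cells, while the 4 genes together were at 29.9 and 30.9 CPM. A UMI of H2-DMb1 was seen in 64.1% of control and 36.7% of FA cells (thinned 15.6% and 8.69%). For H2-DMa, the partner chain, these shares were 2.56% and 1.14% unthinned. Control proximal tubule-like cells had 21.1 CPM of H2-DMb1.

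The other genes of the pathway were counted by list. In macrophage-like cells, 1 of 7 promoter complex genes was lower in FA and 0 were higher: Rfx5 was at 9.82 and 4.49 CPM. Of 10 genes upstream of Ciita 3 were lower (background 21.5%) and 0 higher. These were Irf4 (ratio 0.212), the interferon gamma receptor chain Ifngr1 (388 and 205 CPM) and Irf8 (401 and 222 CPM). Of 7 measured genes in a list chosen for restraint of class II, 3 were higher, where 26.6% of all genes tested were. They were Nfil3 (12.3-fold), Bhlhe40 (4.71-fold) and the cytokine feedback inhibitor Socs3 (122 and 466 CPM). Effects of the listed genes on class II were not tested. In that list 2 were lower, among them Prdm1, a repressor of Ciita (0.315).

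Antigen handling genes were not lower as a group in macrophage-like cells. Of 9 processing genes 4 were higher and 2 lower (backgrounds 26.6% and 21.5%), with the endosomal protease Ctsd at 79.5 and 303 CPM, the thiol reductase Ifi30 at 336 and 697 CPM, and Psap at 2389 and 1022 CPM. Of 10 MHC class I genes 0 were higher and 2 lower, H2-T23 (0.476) and Tap2 (0.633). Of 5 costimulatory genes Cd80 was higher (2.11-fold), and Cd86 (283 and 170.5 CPM) and Icosl (0.534) were lower. The median log2 ratio was 0.53 for processing, -0.04 for class I and -3.72 for the members, beside 0.08 over all genes tested. H2-Ob and H2-DMb2 had ratios of 0.0741 and 0.187.

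In dendritic-like cells, 4 of 7 restraint genes were higher and 1 lower (backgrounds 21.9% and 16.2%), with Socs3 at 318 and 875 CPM and Nfil3 at 8.33-fold (5 UMIs in control). Irf8 (476 and 191 CPM) and Irf4 (98.7 and 40.5 CPM) were lower, and Jak2 (1.84-fold) and the myeloid factor Spi1 (1.67-fold) were higher. Of 6 costimulatory genes 5 were higher, among them Cd86 at 99.97 and 177 CPM. In monocyte-like cells, 4 of 7 restraint genes were higher and 2 lower (backgrounds 13.8% and 23.7%), with Socs3 at 358 and 1448 CPM, and 0 of 10 class I genes passed 1.5-fold. In B cell-like cells, 3 of 6 restraint genes were higher and 1 lower (backgrounds 19% and 14.5%), and Cd86 was at 41.3 and 126 CPM.

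In proximal tubule-like cells 9 of 10 MHC class I genes were higher in FA and 0 lower (backgrounds 29.5% and 21.1%). H2-D1 was at 65.8 and 249.7 CPM, and the peptide transporter gene Tap1 was 6.74-fold higher. The median log2 ratio was 1.69 for the class I genes and 2.33 for the members, beside 0.12 over all genes tested. Of 8 measured genes upstream of Ciita 5 were higher and 0 lower, beside the same backgrounds. Among the higher ones were Irf1 (10.2-fold) and Ifngr1 (3.10-fold).

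Across 29 class and library levels, the genes most like Ciita by Pearson correlation of log2(CPM + 1), members aside, were Gm20513 (0.902), the leukocyte receptor gene Cd180 (0.853), H2-Ob (0.848), Bcl11a (0.845) and Rab39 (0.840), among 14457 genes. Gm20513 overlaps H2-Eb1 on the other strand. Of the members, H2-Ab1 (0.904) and H2-Aa (0.895) were nearest to Ciita and H2-DMb1 (0.718) was farthest. For the sum of the 4 genes, H2-DMa was at 0.899 and Ciita at 0.878, and the most alike genes outside the members were Prcp (0.847), Cd180 (0.845), Rnase6 (0.822), Ly86 (0.819) and Fgd2 (0.817). The levels share 2 libraries and are not independent.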

How the data were processed

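The authors deposited 1 matrix of UMI counts for both libraries; the values were checked to be whole numbers. The submitters' processing notes name Seurat and mm10. The counting tool and annotation are not stated there. Barcodes starting C3 were taken as control because the other start names FA. Of these, 54 barcode sequences occurred in both libraries. Before names were joined, 1255 had UMIs in control only and 2543 in FA only. Names that differ between libraries were joined (230 pairs), which left 1025 and 2313. Whether the 2 libraries were counted with the same annotation was not tested.

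The libraries held 63646459 UMIs (control, 9681 barcodes) and 84138607 (FA, 18997). Cells needed 200 genes, 500 UMIs and at most 50% mitochondrial UMIs, and 488 and 2420 likely doublets were removed by comparison with simulated pairs. Cells were clustered with leidenalg 0.10.2 (resolution 1, class II genes excluded). Names ending in -like rest on marker lists, and 5 of 37 clusters stayed unnamed. The naming limit, a score of 1 or a marker among the top 10 genes, was set after clusters were seen.

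UMIs were summed per class as CPM with exact Poisson intervals. Ratios have conditional binomial and shares Clopper-Pearson intervals. Genes with 20 or more UMIs were counted at a ratio of 1.5. Ratios, intervals and thinning were tested on simulated data. Members and lists were chosen with earlier results of these data known. The genes named are the members, up to 4 per list and class with the largest ratio at 50 or more UMIs, the 5 most alike, and gauge and marker genes. One gene that this rule names is not reported here.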

Additional observations from a re-analysis of the deposited data

Results flagged for a closer look

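The difference between FA and control in the summed H2-Aa, H2-Ab1, H2-Eb1 and Cd74 had opposite directions in 2 classes. In macrophage-like cells the log2 ratio was -3.81, and in proximal tubule-like cells it was 2.03. With 1 library per group each direction rests on 1 pair of libraries, and the difference between the classes was not tested.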

How the results depend on the processing

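Every log2 ratio of the 4 genes kept its direction in macrophage-, monocyte-, dendritic-, B cell- and proximal tubule-like cells under each alternative run. With the stricter cell filter it was -3.85 in macrophage-like, -0.45 in dendritic-like, -0.72 in B cell-like and 1.11 in proximal tubule-like cells, and H2-Eb1 in proximal tubule-like cells reversed to -0.54. With doublets kept it was -3.42 in macrophage-like, -0.45 in dendritic-like and 1.52 in proximal tubule-like cells, and 26.6% of FA macrophage-like cells had 10 or more UMIs. Resolution 0.5 gave 1.91 in proximal tubule-like cells, and resolution 2 gave -3.79 in macrophage-like and 1.49 in proximal tubule-like cells. With class II genes in the clustering it was -3.77 in macrophage-like and -2.60 in monocyte-like cells. Averaged over cells instead of summed it was -3.60, -2.46, -0.43 and 1.59 in macrophage-, monocyte-, dendritic- and proximal tubule-like cells. Without mitochondrial genes, an alternative chosen after seeing the data, it was -3.85 in macrophage-like and -0.45 in dendritic-like cells. The correlation of Ciita with the 4 genes in FA macrophage-like cells was 0.265 thinned to 2000 UMIs and 0.372 unthinned. FA proximal tubule-like cells had 6.34% of the macrophage-like level of the 4 genes, and 3.84% with the stricter filter, 6.87% with doublets kept, 5.78% and 4.30% at resolutions 0.5 and 2, and 3.57% with immune-like cells as the reference. The cause was not tested. Over all results and alternatives, 562 values lay within the counting interval of the main value (for counts of genes, within 1.5 times of it) and 196 outside, and 1 difference of 1.5-fold or more, that of H2-Eb1, reversed. Values near 0 changed sign too, among them the Ciita correlation in control macrophage-like cells and H2-Ab1 in dendritic-like cells. No paired analysis was possible because each group has 1 library.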

Other observations

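Genes were ranked by their Pearson correlation with the summed H2-Aa, H2-Ab1, H2-Eb1 and Cd74 over thinned cells, a step added after the data were seen, and the values are descriptions of weak relations in sparse counts. Over 1663 FA macrophage-like cells the highest of 1384 genes were H2-DMb1 (0.397), H2-DMa (0.223), Ly6a (0.221) and the cytokine gene Il1b (0.184). The lowest were the chemokine genes Ccl7 (-0.208), Pf4 (-0.203), Ccl12 (-0.188) and Ccl2 (-0.167), with the mannose receptor gene Mrc1 at -0.152. In 674 control macrophage-like cells the highest were C1qb (0.390), Cst3 (0.378) and C1qa (0.342), and mitochondrial genes were lowest, led by mt-Cytb (-0.494).

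In 537 FA monocyte-like cells Ly6a was highest (0.325), and Lyz2 (-0.373), Hp (-0.371) and Chil3 (-0.311) were lowest. In only 60 control monocyte-like cells H2-DMb1 (0.498), C1qb (0.460) and C1qa (0.431) were highest and Lsp1 (-0.468) was lowest. In dendritic-like cells Irf8, a factor upstream of Ciita, was among the lowest in both libraries (-0.512 in control and -0.498 in FA), with the plasmacytoid-associated genes Bst2 (-0.591 and -0.447) and Tcf4 (-0.583 and -0.423). In 1099 injured tubule-like cells the highest were Spp1 (0.257) and the class I genes H2-K1 (0.196) and B2m (0.191).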
